A study of Mus musculus with 10 samples.

Results

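Chemokine ligands were examined as a family: every gene symbol in the 10 libraries' files that is made of Ccl or Cxcl, a number and at most 1 further lower-case letter, which gave 31 of 28454 symbols. Levels are in FPKM, sequenced fragments per gene, corrected for how long its transcript is and how many fragments were mapped. The libraries hold RNA from CD31-positive cells sorted magnetically out of tumours of B16F10, a mouse melanoma line, after cells with CD11b (Itgam) on their surface had been depleted. Of the 10 libraries, 6 came from tumours of adult Shbflox/flox/Cdh5-CreERt2 mice, called Shb-inactivated here, and 4 from tumours of adult wild-type mice whose strain label reads Cdh5-CreERt2, so both groups carry the inducible Cre recombinase driven by the endothelial Cdh5 promoter. The source label reads tumors and lungs and the tissue label tumour, and the agent that induced the Cre is not named in the labels used here. The study compared the 2 groups, and Shb, an SH2-domain adaptor downstream of VEGF receptor 2, checks the labels: it was 0.37 to 1.44 FPKM in the inactivated libraries, against 2.78 to 5.44 FPKM in the wild-type libraries, with no overlap. Of the 31 ligands, 23 reached 1 FPKM in at least 1 library and 22 had at least 1 FPKM in at least 4 libraries and were tested.

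Chemokines are small secreted proteins that steer leukocytes through G protein-coupled receptors, and they are classed as CC or CXC by whether their first conserved cysteines are adjacent or separated. Inflammatory members are induced by cytokines such as TNF and interleukin-1, largely through NF-kappa B, or by interferons, while homeostatic members such as Cxcl12 are made steadily by stroma and endothelium. Endothelial cells both make chemokines and display those of other cells on surface heparan sulphate, and tumour macrophages are a second large source.

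The sorted libraries were unequal in myeloid RNA, and many ligands differed between the same libraries. Itgam was 29.3 and 35.9 FPKM in Shb-inactivated replicates 3 and 4 and 0.27 to 0.42 FPKM in the other 4 inactivated libraries, against 109 FPKM in wild-type replicate 3, 5.85 in replicate 2, 2.27 in replicate 1 and 0.20 in replicate 4. The 3 libraries above 10 FPKM are called Itgam-rich here and the other 7 Itgam-poor. All 14 monocyte and macrophage markers listed were higher in each Itgam-rich library than in any Itgam-poor one. Itgam is 1 of the 14 and set the split, so its own place was fixed in advance. The share of all genes that reached 1 FPKM with this pattern was 9.57%. The 14 markers summed to 46.9 to 4949 FPKM in the inactivated group and 49.0 to 6664 FPKM in the wild-type group. The endothelial marker Pecam1 (CD31) was 873 to 1237 FPKM in inactivated libraries, against 569 to 864 FPKM in wild-type libraries, with no overlap. Every inactivated library was likewise higher for 0.539% of all genes tested. The other endothelial markers listed overlapped between the groups, such as Cdh5 at 422 to 616 FPKM in inactivated and 374 to 429 FPKM in wild-type libraries. In sorted bulk RNA, fewer cells of a type and less RNA per cell cannot be told apart.

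The 31 ligands summed to 3889 and 3591 FPKM in Shb-inactivated replicates 3 and 4, and to 136 to 281 FPKM in the other 4 inactivated libraries. In the wild-type group the sums were 6788 FPKM in replicate 3, 752 in replicate 2, 233 in replicate 1 and 196 in replicate 4. Which ligand was most abundant changed with this. Ccl2 led in inactivated replicates 3 and 4, Cxcl1 in replicate 5 and Cxcl12 in replicates 1, 2 and 6, while Cxcl2 led in wild-type replicates 2 and 3 and Cxcl12 in replicates 1 and 4. Cxcl12 alone was 21.0% to 46.8% of the summed ligand level in the 4 Itgam-poor inactivated libraries, and 0.385% and 0.511% in the 2 Itgam-rich ones, against 16.5%, 8.09%, 0.330% and 35.0% in wild-type replicates 1 to 4.

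**Figure D1:**
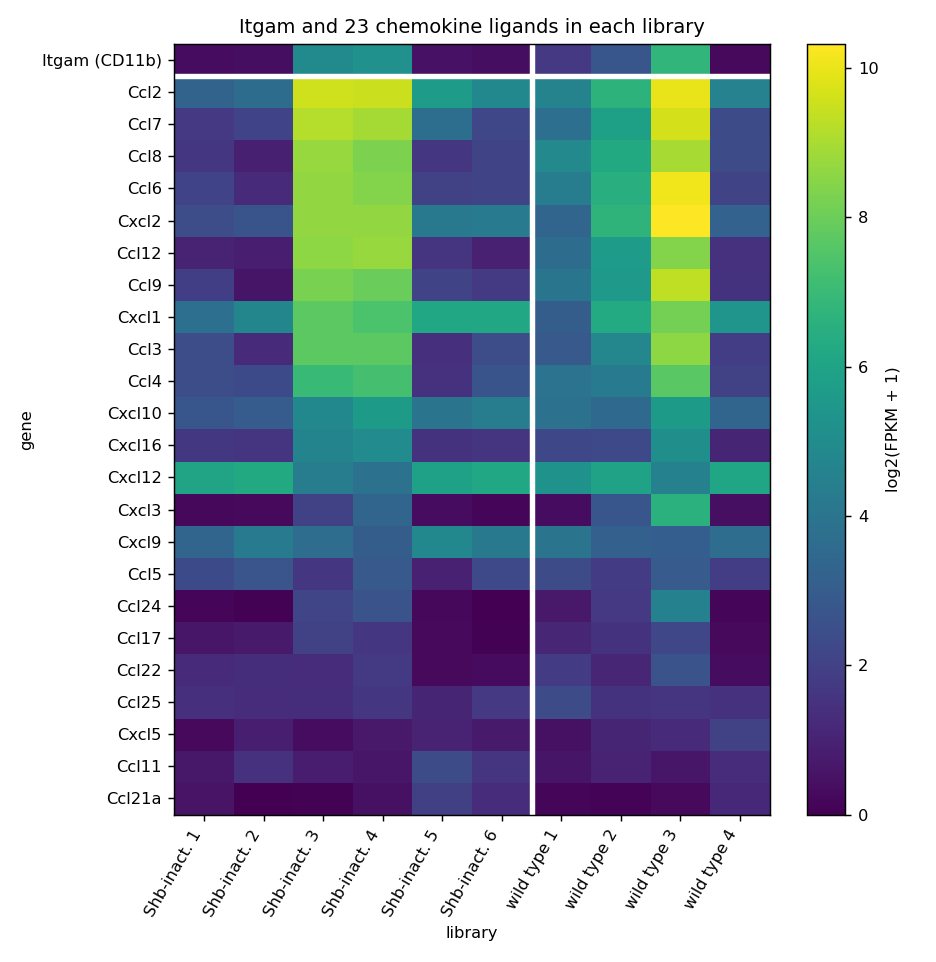
Level of Itgam (top row) and of the 23 ligands that reached 1 FPKM, as log2(FPKM + 1), in the 6 Shb-inactivated libraries (left) and the 4 wild-type libraries (right), ordered by median in the 3 Itgam-rich libraries. The columns of Shb-inactivated replicates 3 and 4 and wild-type replicate 3 are bright for most ligands, and the Cxcl12 row is darker there.

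Of the 23 ligands that reached 1 FPKM, 14 were higher in each of the 3 Itgam-rich libraries than in any of the 7 Itgam-poor ones: Ccl2, Ccl3, Ccl4, Ccl6, Ccl7, Ccl8, Ccl9, Ccl12, Ccl17, Ccl24, Cxcl1, Cxcl2, Cxcl10 and Cxcl16. Among all 15434 genes that reached 1 FPKM the share was 9.57%. Cxcl12 was the 1 ligand lower in each Itgam-rich library, a pattern that 5.53% of all genes had, and the other 8 overlapped. Since the libraries were divided by a measured marker, these counts describe the libraries and were not tested. Within the Itgam-poor libraries, wild-type replicates 1 and 2 carried more Itgam than the other 5, and 10 of the 23 ligands lay in 3 steps of Itgam, highest in the Itgam-rich libraries and next in those 2, against 2.5% of all genes. Of the 14, those that did not keep the steps were Ccl2, Cxcl1, Cxcl2 and Cxcl10.

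The ligands of Ccr2, the receptor that brings monocytes out of blood, include Ccl2, the ligand with the highest mean over the 10 libraries. Ccl2, which lies on chromosome 11 from 82035571 to 82037453 (plus strand, GRCm38), was 769.9 and 719 FPKM in Shb-inactivated replicates 3 and 4 and 8.66, 11.6, 50.2 and 27.5 FPKM in replicates 1, 2, 5 and 6. In wild-type replicates 1 to 4 it was 23.9, 102, 1004 and 22.7 FPKM. The Itgam-rich libraries were far above the rest in both groups, and the groups overlapped throughout. Ccl7, its neighbour from 82045712 to 82047525, was 572 and 482 FPKM in the 2 Itgam-rich inactivated libraries and 2.25 to 12.4 FPKM in the other 4, against 12.7, 56.9, 799.8 and 4.08 FPKM in wild-type replicates 1 to 4. Ccl12, a Ccr2 ligand of mice, was 376 and 422 FPKM and 0.83 to 1.99 FPKM in the same inactivated libraries, against 11.4, 51.5, 337 and 1.81 FPKM in the wild-type libraries. Ccl8, which in mice acts on Ccr8, stands beside it and was 428 and 312 FPKM and 0.86 to 3.32 FPKM, against 27.9, 76.2, 496 and 4.25 FPKM. The median of the Itgam-rich libraries was 32.2 times that of the Itgam-poor ones for Ccl2, 140.1 times for Ccl7, 129 times for Ccl8 and 208 times for Ccl12. Ccl2 had the smallest such ratio of the 4, with 8.66 FPKM or more in every library.

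The macrophage inflammatory protein group, which attracts monocytes and macrophages, among others through the receptor Ccr1, lay on the same chromosome from Ccl9 (83572919 to 83578636) to Ccl4 (83662584 to 83664683). Ccl6, a CC chemokine known from rodents, was 399.9 and 344 FPKM in Shb-inactivated replicates 3 and 4 and 1.32 to 3.37 FPKM in the other 4, against 19.6, 90.5, 1109.6 and 3.31 FPKM in wild-type replicates 1 to 4. Ccl9, its neighbour and likewise known from rodents, was 302 and 252 FPKM and 0.50 to 3.37 FPKM, against 15.3, 47.1, 642 and 1.89 FPKM. Both kept the 3 steps of Itgam, with wild-type replicates 2 and 1 between the Itgam-rich and the remaining libraries. They did not keep its order within the steps: both were higher in inactivated replicate 3 than in replicate 4, the reverse of Itgam. Ccl3, made by activated macrophages, was 207 and 209.7 FPKM and 1.44 to 4.47 FPKM, against 6.32, 26.8, 377 and 2.68 FPKM. Ccl4, likewise made by activated macrophages, was 127 and 155 FPKM and 1.80 to 5.35 FPKM, against 14.1, 17.8, 202 and 2.96 FPKM. The ratio of medians was 121 for Ccl6, 107 for Ccl9, 47.5 for Ccl3 and 35.4 for Ccl4.

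**Figure D2:**
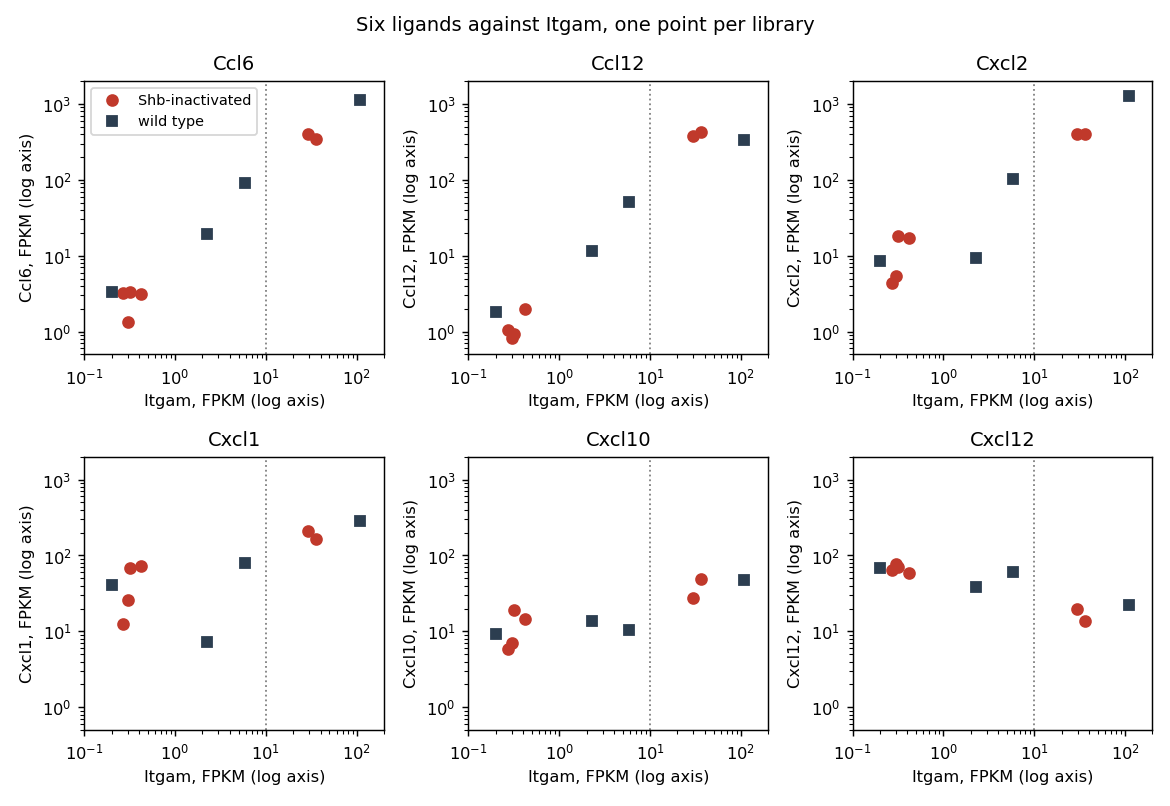
FPKM of 6 ligands (vertical, log axis) against FPKM of Itgam (horizontal, log axis) in each library, Shb-inactivated as circles and wild type as squares, with a dotted line at 10 FPKM of Itgam. Ccl6 and Ccl12 climb in steps from the libraries under 1 FPKM of Itgam, Cxcl1 and Cxcl10 are scattered left of the line, and Cxcl12 is 13.8 to 22.4 FPKM right of it and 38.4 to 76.1 FPKM left of it.

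The CXC ligands of Cxcr2, which attract neutrophils, behaved unlike one another. They sit together on chromosome 5 (Cxcl1 from 90891241 to 90893115, Cxcl2 from 90903871 to 90905938, Cxcl3 from 90786103 to 90789600 and Cxcl5 from 90759360 to 90761624). Cxcl2 was 397 and 399 FPKM in Shb-inactivated replicates 3 and 4 and 4.42 to 18.4 FPKM in the other 4, against 9.33, 103, 1281 and 8.44 FPKM in wild-type replicates 1 to 4. Cxcl1 was 211 and 166 FPKM in the same 2 and 12.5, 25.6, 72.7 and 69.2 FPKM in replicates 1, 2, 5 and 6, against 7.16, 79.4, 288 and 40.9 FPKM. The medians of Itgam-rich and Itgam-poor libraries differed 42.7-fold for Cxcl2 and 5.15-fold for Cxcl1. Cxcl1 was above Cxcl2 in 5 of 10 libraries, the 5 with under 1 FPKM of Itgam, where the ratio of Cxcl1 to Cxcl2 was 2.82, 4.76, 4.21 and 3.77 in inactivated replicates 1, 2, 5 and 6 and 4.85 in wild-type replicate 4. It was 0.531 and 0.416 in inactivated replicates 3 and 4, and 0.767, 0.770 and 0.225 in wild-type replicates 1 to 3. Cxcl3 was 2.97 and 9.32 FPKM in inactivated replicates 3 and 4 and 0.11 to 0.26 FPKM in the other 4, against 0.28, 5.79, 96.9 and 0.35 FPKM in wild-type replicates 1 to 4, so wild-type replicate 2 lay above an Itgam-rich library. Cxcl5 was highest in the Itgam-poor wild-type replicate 4 at 3.02 FPKM and was 0.19 to 1.06 FPKM in inactivated libraries.

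The start regions of Cxcl1, Cxcl2, Cxcl3, Cxcl10 and Cxcl12 are shown because Cxcl1, Cxcl2 and Cxcl10 were higher in each Itgam-rich library, with ratios of medians of 5.15, 42.7 and 4.57 in that order, Cxcl3 lies beside them, and Cxcl12 was lower in each. Each line gives 250 bases before and 50 after the start of the RefSeq transcript on GRCm38.p6, with capitals on matches to the kappa B-type motif (GGGA, then NN, then TTCC) and the interferon response (ISRE) type motif (GAAA, then NN, then GAAA), where N is any base, read on both strands.
Cxcl1 (chr5:90890995-90891294, plus strand): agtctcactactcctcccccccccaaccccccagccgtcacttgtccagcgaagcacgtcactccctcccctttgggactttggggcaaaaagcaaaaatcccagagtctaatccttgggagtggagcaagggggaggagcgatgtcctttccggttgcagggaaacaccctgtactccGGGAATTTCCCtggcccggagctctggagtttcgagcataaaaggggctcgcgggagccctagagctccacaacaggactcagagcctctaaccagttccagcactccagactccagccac
Cxcl2 (chr5:90903649-90903948, plus strand): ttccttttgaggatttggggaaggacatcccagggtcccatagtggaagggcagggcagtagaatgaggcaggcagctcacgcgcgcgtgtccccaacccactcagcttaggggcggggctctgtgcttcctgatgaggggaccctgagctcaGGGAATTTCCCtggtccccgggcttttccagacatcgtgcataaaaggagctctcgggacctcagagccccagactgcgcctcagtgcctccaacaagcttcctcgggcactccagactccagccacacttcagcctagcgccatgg
Cxcl3 (chr5:90785851-90786150, plus strand): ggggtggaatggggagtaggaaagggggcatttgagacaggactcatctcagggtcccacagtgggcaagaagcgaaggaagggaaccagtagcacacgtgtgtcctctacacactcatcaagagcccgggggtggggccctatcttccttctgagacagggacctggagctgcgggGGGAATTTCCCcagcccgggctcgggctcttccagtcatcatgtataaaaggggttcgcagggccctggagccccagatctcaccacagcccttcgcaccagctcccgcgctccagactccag
Cxcl10 (chr5:92348840-92349139, minus strand): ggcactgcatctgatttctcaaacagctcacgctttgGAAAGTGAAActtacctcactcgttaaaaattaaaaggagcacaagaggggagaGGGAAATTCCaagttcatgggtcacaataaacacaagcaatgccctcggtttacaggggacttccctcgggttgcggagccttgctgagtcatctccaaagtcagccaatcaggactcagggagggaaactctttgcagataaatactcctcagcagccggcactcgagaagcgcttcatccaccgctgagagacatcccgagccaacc
Cxcl12 (chr6:117168285-117168584, plus strand): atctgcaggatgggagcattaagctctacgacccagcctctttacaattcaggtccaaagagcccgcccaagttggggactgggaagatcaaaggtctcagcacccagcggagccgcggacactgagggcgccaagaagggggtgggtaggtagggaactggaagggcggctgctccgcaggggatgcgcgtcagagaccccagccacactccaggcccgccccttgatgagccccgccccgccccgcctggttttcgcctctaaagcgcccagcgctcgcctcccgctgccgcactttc
Cxcl1, Cxcl2 and Cxcl3 share the same marked run, which begins at position -71, -97 and -73 from the start and counts as overlapping matches on the plus and the minus strand. Cxcl10 has a kappa B-type match beginning at position -159 and an ISRE-type match beginning at position -213, and Cxcl12 has neither in this window. Among the 21 ligands with a RefSeq start region the kappa B-type letters occurred in 5 (Ccl1, Cxcl1, Cxcl2, Cxcl3 and Cxcl10), against 1.47% of all 32851 start regions. The ISRE-type letters occurred in 3 (Ccl19, Cxcl10 and Cxcl14), against 3.44% of all, and the TATA box letters TATAAA on either strand in 7, against 13.6% of all. A match describes letters in the window, not a bound site. Of the 14 ligands that were higher in each Itgam-rich library, 9 had a start region and 3 of those held the kappa B-type letters, while Cxcl3 held them and overlapped.

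The ligands of Cxcr3, which draw T and NK cells and are induced by interferons, did not move as one. Cxcl10 (chromosome 5, 92346638 to 92348889, minus strand) was 5.82, 6.99, 27.5, 49.0, 14.8 and 19.1 FPKM in Shb-inactivated replicates 1 to 6, against 13.8, 10.5, 48.0 and 9.37 FPKM in wild-type replicates 1 to 4. Its highest values were in the Itgam-rich libraries, and inactivated replicates 5 and 6 came next. Cxcl9, its neighbour, was 9.39, 18.2, 11.8, 7.14, 27.5 and 17.1 FPKM in the inactivated libraries, against 14.8, 8.06, 7.48 and 11.9 FPKM in the wild-type libraries. It was highest in inactivated replicate 5 and lowest in inactivated replicate 4 and wild-type replicate 3, both Itgam-rich. The third member, Cxcl11, stayed at or under 0.46 FPKM in every library. The summed level of 15 interferon response genes was 203, 197, 318, 398, 589 and 337 FPKM in inactivated replicates 1 to 6, against 184, 186, 431 and 189.6 FPKM in wild-type replicates 1 to 4. The 5 libraries above 300 FPKM of that sum were the 5 highest for Cxcl10, while Cxcl9 was among its own lowest in 2 of those 5. The part of interferon in either ligand was not tested. Markers of T and NK cells, whose interferon gamma induces Cxcl9, summed to 6.36 to 27.01 FPKM in inactivated and 13.7 to 34.0 FPKM in wild-type libraries. Of these markers, 5 of 11 were lower in each Itgam-rich library than in any other, against 5.53% of all genes that reached 1 FPKM. Klrb1c and Gzma, among those 5, stayed at or under 0.55 FPKM. The part of T and NK cells was not tested. Cxcl16, a membrane-bound ligand of Cxcr6 also made by macrophages, was 24.0 and 30.7 FPKM in inactivated replicates 3 and 4 and 1.89 to 2.19 FPKM in the other 4, against 3.69, 3.87, 34.2 and 1.07 FPKM in wild-type replicates 1 to 4.

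Cxcl12, the homeostatic ligand of Cxcr4 and of the scavenger receptor Ackr3, was lower where Itgam was high. Its locus is on chromosome 6 (117168535 to 117181367, plus strand). It was 63.6, 76.1, 19.9, 13.8, 59.1 and 70.1 FPKM in Shb-inactivated replicates 1 to 6, against 38.4, 60.9, 22.4 and 68.7 FPKM in wild-type replicates 1 to 4. The 3 lowest values were the 3 Itgam-rich libraries, and the ratio of medians was 0.313. Fibroblast and pericyte markers, whose cells also make Cxcl12, moved with it in part: 5 of 8 fibroblast markers and 4 of 7 pericyte markers were lower in each Itgam-rich library than in any other, while 1 of 10 endothelial markers was. Among all genes that reached 1 FPKM the share with this pattern was 5.53%. The fibroblast markers summed to 164, 241, 26.6, 55.6, 253 and 533 FPKM in inactivated replicates 1 to 6, against 416, 212, 98.8 and 334 FPKM in wild-type replicates 1 to 4, with no marker at 0 in every library. The pericyte markers summed to 141, 270.4, 128, 189, 639.6 and 279 FPKM in the inactivated libraries, against 95.4, 207, 101 and 282 FPKM in the wild-type libraries. Their part in the Cxcl12 pattern was not tested.

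The other ligands were low. Ccl5, made by T cells, NK cells and macrophages, was 0.91 to 6.36 FPKM in Shb-inactivated libraries, against 2.53 to 6.86 FPKM in wild-type libraries, and Itgam-rich and Itgam-poor libraries overlapped. The eotaxin Ccl24, a Ccr3 ligand made by macrophages, was 3.41 and 5.2 FPKM in inactivated replicates 3 and 4 and 0 to 0.18 FPKM in the other 4, against 0.61, 2.29, 21.9 and 0.12 FPKM in wild-type replicates 1 to 4. The other eotaxin, Ccl11, a product of stromal cells, had its highest value of 4.17 FPKM in inactivated replicate 5 and was 0.55 to 0.77 FPKM in the Itgam-rich libraries of both groups. The Ccr4 ligands Ccl17 and Ccl22, made by dendritic cells and macrophages, were highest in wild-type replicate 3 at 3.63 and 5.24 FPKM. In inactivated libraries Ccl17 was 0.04 to 3.04 FPKM and Ccl22 was 0.21 to 2.37 FPKM. Ccl25, the ligand of Ccr9 in thymus and gut, was 1.12 to 2.25 FPKM in inactivated libraries, against 4.29 FPKM in wild-type replicate 1 and 1.81 to 2.03 FPKM in the other 3. Ccl21a, a Ccr7 ligand of lymphatic vessels, was 0 to 2.85 FPKM in inactivated libraries, against 0.07 to 1.26 FPKM in wild-type libraries. It has near-identical copies in the mouse genome, so its value is uncertain, and it reached 1 FPKM in too few libraries to be tested. The remaining 8 ligands, Ccl1, Ccl19, Ccl20, Ccl28, Cxcl11, Cxcl13, Cxcl14 and Cxcl17, never exceeded 0.66 FPKM.

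The 5 libraries with under 1 FPKM of Itgam, 4 Shb-inactivated and wild-type replicate 4, show which ligands stayed when myeloid RNA was near its lowest. Lyz2, a myeloid lysozyme, was still 16.9 to 28.7 FPKM in the 4 inactivated libraries and 21.4 FPKM in wild-type replicate 4. In these libraries 12 ligands had at least 1 FPKM throughout and 5 had at least 5 FPKM throughout. Those 5, by median, were Cxcl12 at 68.7 FPKM, Cxcl1 at 40.9, Ccl2 at 22.7, Cxcl9 at 17.1 and Cxcl10 at 9.37. Neighbours in this order overlapped: Cxcl1 ranged from 12.5 to 72.7 FPKM, Ccl2 from 8.66 to 50.2 FPKM and Cxcl9 from 9.39 to 27.5 FPKM. Ccl8 and Ccl12 were far lower, with Ccl8 at 0.86 to 4.25 FPKM and Ccl12 at 0.83 to 1.99 FPKM. Over all 7 Itgam-poor libraries, 18 of 23 ligands had a median of at least 1 FPKM, against 80% of all genes, so this count is no higher than that of genes at large. Of those 18, the 6 that were not higher in each Itgam-rich library were Ccl5, Ccl11, Ccl22, Ccl25, Cxcl9 and Cxcl12.

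**Figure D3:**
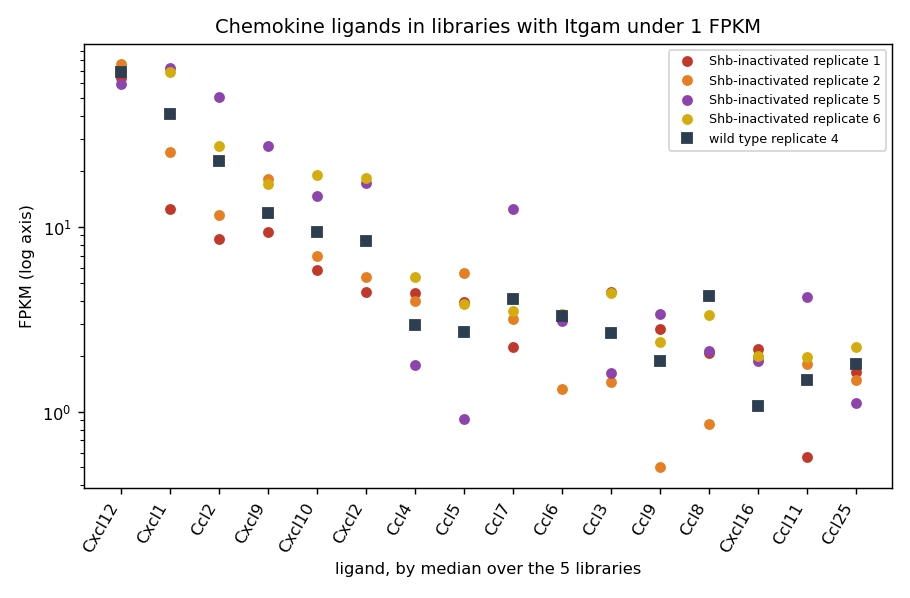
FPKM (log axis) of the 16 ligands with the highest medians in the 5 libraries with under 1 FPKM of Itgam, 4 Shb-inactivated libraries as circles and wild-type replicate 4 as a square. Cxcl12 lies between 59.1 and 76.1 FPKM in all 5, while Cxcl1 spreads from 12.5 to 72.7 FPKM.

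The Itgam-rich libraries also differed from each other, and the ligands did so by unequal amounts. The mean of Shb-inactivated replicates 3 and 4 was 0.299 times wild-type replicate 3 for Itgam but 0.914 times for Adgre1, 0.917 times for Cd68 and 0.906 times for Mrc1, markers of mature macrophages, and over all 14 monocyte and macrophage markers it ran from 0.299 to 1.06 with a median of 0.708. The ratios of 4 neutrophil genes ran from 0.0153 to 0.0979, and S100a8 was 5.60 and 11.1 FPKM in the inactivated pair, against 436 FPKM in wild-type replicate 3. Over the 20 ligands with at least 1 FPKM in all 3 libraries this ratio ran from 0.0634 to 1.26, with a median of 0.679. Cxcl3 was lowest at 0.0634, then Ccl24 at 0.197, Cxcl2 at 0.311 and Ccl6 at 0.335. Ccl12 at 1.18 and Cxcl9 at 1.26 were the 2 above 1, and Ccl2, Ccl8, Cxcl10 and Cxcl16 lay between 0.742 and 0.801. The cytokine Il1b, an inducer of chemokines, was 55.3 and 84.1 FPKM in the inactivated pair, against 870.4 FPKM in wild-type replicate 3. With 1 wild-type library against 2 inactivated ones these ratios have no replicate check, and genotype, myeloid amount and myeloid kind cannot be told apart.

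**Figure D4:**
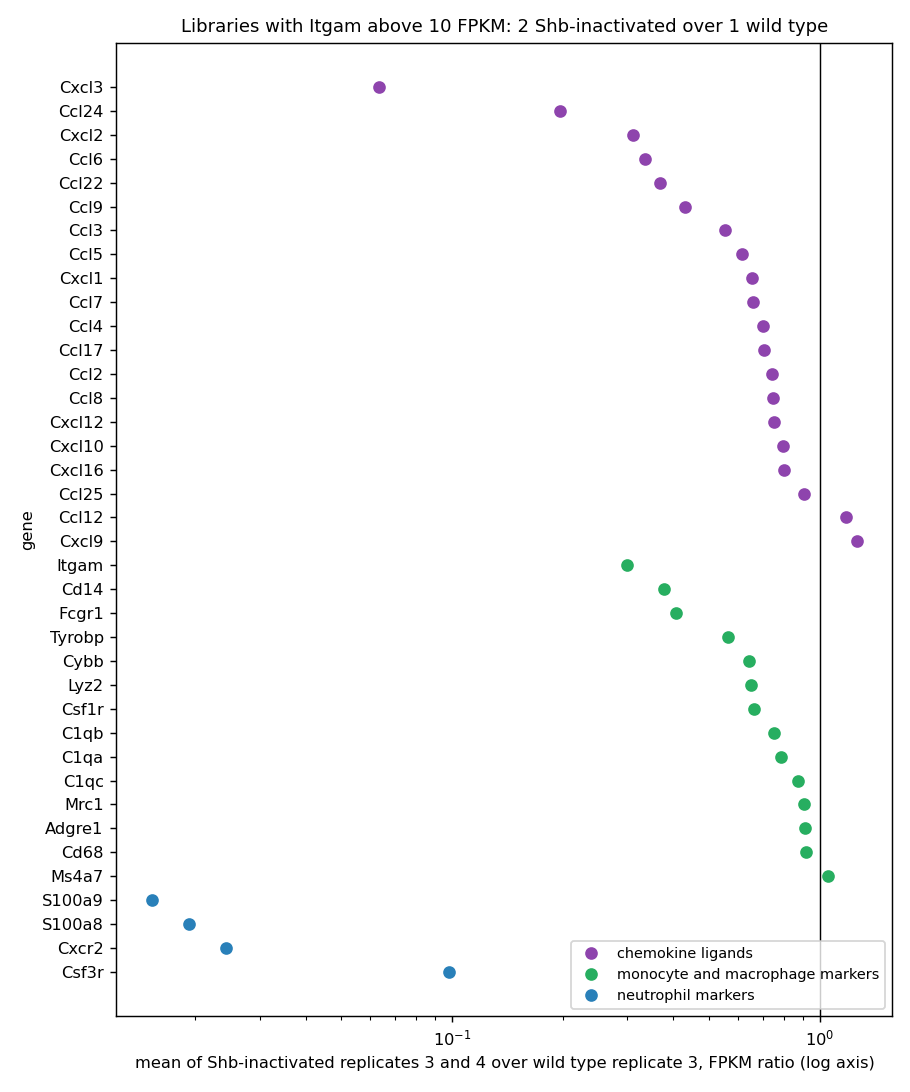
Mean FPKM of Shb-inactivated replicates 3 and 4 over FPKM of wild-type replicate 3 (log axis) for 20 ligands, 14 monocyte and macrophage markers and 4 neutrophil markers, with a line at 1. The ligands spread from 0.0634 (Cxcl3) to 1.26 (Cxcl9), and the 4 neutrophil markers lie under 0.1.

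Compared by genotype over all 10 libraries, no chemokine ligand passed the test. Limma on log2(FPKM + 1) called 0 of 22 ligands at an adjusted p under 0.05 and 0% of all 12805 genes tested, and at an unadjusted p under 0.05 it had 0 of 22 ligands, against 3.45% of all genes. Shb, the inactivated gene, was not called either, with a log2 difference of -1.27 and limma adjusted p = 0.989. In the 7 Itgam-poor libraries its limma adjusted p was 0.840. A ligand that was not called is therefore not shown to be unchanged. The median difference of the 22, Shb-inactivated minus wild type, was -0.49 on the log2 scale, against 0.01 for all genes, and 3 of 22 were above 0, against 51.2% of all genes. That median was 0.08 without wild-type replicate 3, the library richest in Itgam, and -0.63 without all 3 Itgam-rich libraries. The 12 most abundant tested ligands show how wide the spread was. Ccl2 averaged 265 ± 373 FPKM in Shb-inactivated and 288 ± 479 FPKM in wild-type libraries (SD, n = 6 and 4), a log2 difference of -0.38 (SE 1.53, 95% interval -3.78 to 3.02, exact permutation p = 0.819). For Ccl6 the means were 126 ± 191 and 306 ± 537 FPKM, with a log2 difference of -1.69 (SE 1.95, exact permutation p = 0.433). Cxcl2 averaged 140.1 ± 199.6 and 350.4 ± 622 FPKM, a log2 difference of -0.77 (SE 1.71, exact permutation p = 0.733). The narrowest intervals were those of Cxcl12, 50.4 ± 26.7 and 47.6 ± 21.1 FPKM with a log2 difference of -0.04 (95% interval -1.21 to 1.12), and Cxcl10, 20.5 ± 16.1 and 20.4 ± 18.5 FPKM with -0.01 (95% interval -1.36 to 1.34). The log2 differences of the other 7 were -1.73 for Ccl8, -1.35 for Ccl9, -1.19 for Ccl12, -0.78 for Ccl7, -0.70 for Ccl3, -0.59 for Ccl4 and 0.26 for Cxcl1. Exact permutation p-values of the 12 ran from 0.424 to 1 and limma adjusted p-values from 0.989 to 1.00. No tested ligand had groups that did not overlap, against 0.539% of all genes with every inactivated library higher and 0.18% with every one lower.

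Within the 7 Itgam-poor libraries, 4 Shb-inactivated and 3 wild-type, 0 of 22 ligands and 0% of all genes passed at a limma adjusted p under 0.05. At an unadjusted p under 0.05 there were 4 of 22 ligands, Ccl6, Ccl8, Ccl9 and Ccl12, against 5.31% of all genes, and all 4 were lower in the inactivated libraries. Ccl8 was 2.08, 0.86, 2.13 and 3.32 FPKM in inactivated replicates 1, 2, 5 and 6, against 27.9, 76.2 and 4.25 FPKM in wild-type replicates 1, 2 and 4, a log2 difference of -2.94 (SE 0.79, limma adjusted p = 0.840). By exact permutation its p was 0.0286, and 35 splits allow none smaller. For Ccl6, Ccl9 and Ccl12 the log2 differences were -2.47, -2.11 and -2.51, with limma adjusted p = 0.840 each. Their groups overlapped, and their exact permutation p-values were 0.0571, 0.143 and 0.0571 in that order. These 4 are ligands that followed Itgam, and Itgam itself was 0.27 to 0.42 FPKM in the 4 inactivated libraries, against 2.27, 5.85 and 0.20 FPKM in the 3 wild-type libraries. In wild-type replicate 4, the 1 wild-type library with as little Itgam, Ccl6 was 3.31 FPKM, Ccl9 1.89 FPKM and Ccl12 1.81 FPKM, within the 1.32 to 3.37, 0.50 to 3.37 and 0.83 to 1.99 FPKM of the inactivated libraries. Ccl8 there was 4.25 FPKM, above the 3.32 FPKM of the highest inactivated library. With 1 such wild-type library, genotype and myeloid amount cannot be told apart here, and their parts in these 4 differences were not tested. Cxcl3 also had groups that did not overlap, 0.11 to 0.26 FPKM in inactivated and 0.28 to 5.79 FPKM in wild-type libraries, with a log2 difference of -0.94 (SE 0.55, limma adjusted p = 0.846, exact permutation p = 0.0286). Among these 7 libraries Cxcl3 reached 1 FPKM only in wild-type replicate 2, so the gap between the groups lies near the floor. With Ccl8 and Cxcl3, 2 of 22 ligands had every inactivated library lower, against 2.35% of all genes, and 0 had every one higher, against 4.4%.

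For the ligands with the highest levels in Itgam-poor libraries the intervals of the difference included 0. Cxcl12 averaged 67.2 ± 7.45 FPKM in inactivated and 56.0 ± 15.7 FPKM in wild-type libraries (SD, n = 4 and 3), a log2 difference of 0.29 (SE 0.21, 95% interval -0.19 to 0.78, exact permutation p = 0.257). Cxcl1 averaged 45.0 ± 30.5 and 42.5 ± 36.1 FPKM, with a log2 difference of 0.29 (SE 0.86, 95% interval -1.69 to 2.27, exact permutation p = 0.8). Ccl2 averaged 24.5 ± 19.0 and 49.4 ± 45.2 FPKM, with -0.94 (SE 0.70, 95% interval -2.54 to 0.68, exact permutation p = 0.371). Cxcl10 averaged 11.7 ± 6.34 and 11.2 ± 2.30 FPKM, with -0.08 (SE 0.38, 95% interval -0.96 to 0.81, exact permutation p = 0.914). Cxcl9 averaged 18.0 ± 7.41 and 11.6 ± 3.36 FPKM, with overlapping groups. With log2(Itgam + 1) as a covariate over all 10 libraries the median difference of the 22 ligands was 0.0041 and 0 passed.

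**Figure D5:**
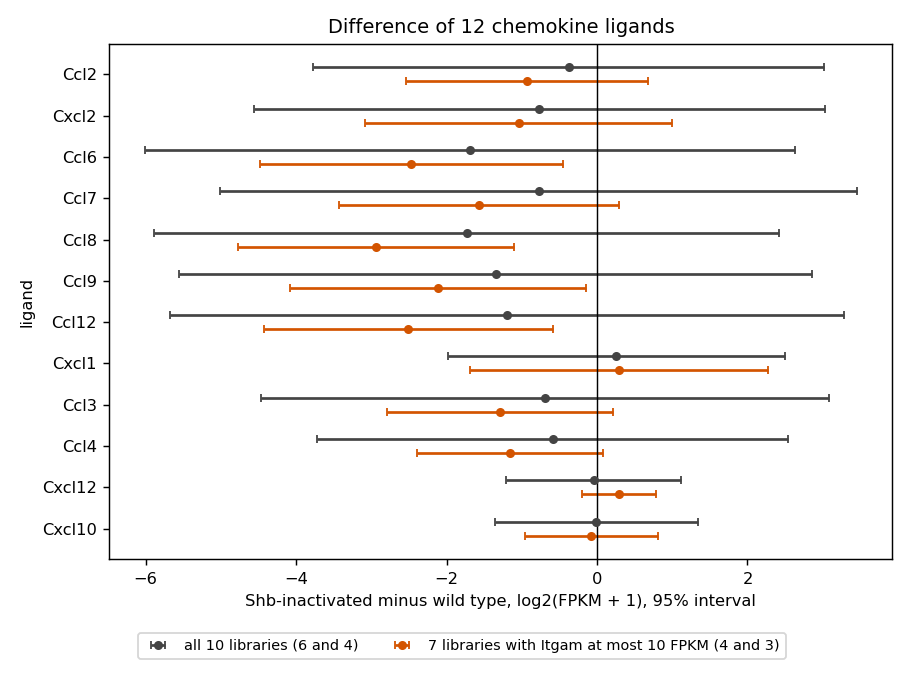
Difference in log2(FPKM + 1), Shb-inactivated minus wild type, with 95% intervals from limma, for the 12 most abundant tested ligands, over all 10 libraries (grey) and over the 7 Itgam-poor libraries (orange). All 12 grey intervals include 0, and the orange ones exclude it for Ccl6, Ccl8, Ccl9 and Ccl12 before adjustment over all genes.

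Of 24 chemokine receptor genes, 17 reached 1 FPKM and 12 were tested, and 0 of 12 passed at a limma adjusted p under 0.05, with 1 (Cxcr5) at an unadjusted p under 0.05, against 3.45% of all genes. In the 7 Itgam-poor libraries 0 of 12 passed, and 3 had an unadjusted p under 0.05, against 5.31% of all genes: Ccr1 and Ccr2 were lower in the inactivated libraries and Ackr1 higher. Over all 10 libraries the median log2 difference of the 12 tested receptors was -0.45, and it was 0.24 without wild-type replicate 3. Cxcr4, a receptor of Cxcl12, was the highest of the receptors in every library, at 168 to 501 FPKM in Shb-inactivated libraries with a median of 233 FPKM, against 170 to 226 FPKM in wild-type libraries. Ackr3, which also binds Cxcl12, was 32.7 to 107 FPKM in inactivated libraries, against 19.7 to 41.7 FPKM in wild-type libraries. Both were highest in inactivated replicate 5 and overlapped between groups. Ackr1, the chemokine-binding receptor of venules, was 4.30, 3.29, 6.66, 1.95, 14.1 and 8.80 FPKM in inactivated replicates 1 to 6, against 1.36, 2.22, 6.22 and 0.86 FPKM in wild-type replicates 1 to 4 (log2 difference 1.03, SE 0.49, exact permutation p = 0.110). In the Itgam-poor libraries Ackr1 did not overlap between the groups, at 3.29 to 14.1 FPKM in inactivated and 0.86 to 2.22 FPKM in wild-type libraries, a log2 difference of 1.66 (SE 0.44, limma adjusted p = 0.840, exact permutation p = 0.0571). Every inactivated library was likewise higher for 4.4% of all genes tested. Of the 17 receptors that reached 1 FPKM, 5 were higher in each Itgam-rich library than in any Itgam-poor one, against 9.57% of all genes. Among these were the leukocyte receptors Ccr1, Ccr3 and Cx3cr1, and Ccrl2, which binds chemerin. Ccr9 was the 1 receptor of 17 that was lower in each, against 5.53% of all genes. Ccr2 was 8.25 and 15.5 FPKM in inactivated replicates 3 and 4 and 2.1 to 3.52 FPKM in the other 4, against 7.37, 8.74, 104 and 2.70 FPKM in wild-type replicates 1 to 4.

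Chemokines whose symbols lie outside the family rule were set beside it. Pf4, a platelet chemokine also found in macrophages, was 564 and 498 FPKM in Shb-inactivated replicates 3 and 4 and 25.7 to 30.3 FPKM in the other 4, against 55.5, 154, 926 and 48.7 FPKM in wild-type replicates 1 to 4. The platelet chemokine Ppbp was 8.93 and 11.1 FPKM in the same 2 inactivated libraries and 43.7 to 58.8 FPKM in the other 4, against 93.7, 134, 62.0 and 87.8 FPKM. The platelet gene Gp9 was 0.24 and 0.66 FPKM in inactivated replicates 3 and 4 and 4.08 FPKM in wild-type replicate 3, against 3.37 to 13.2 FPKM in the other 7 libraries. Pf4 therefore followed Itgam and Ppbp did not. Cx3cl1, the membrane-bound chemokine of endothelium, was 2.30 and 2.30 FPKM in inactivated replicates 3 and 4 and 4.51 to 6.78 FPKM in the other 4. In wild-type replicates 1 to 4 it was 3.12, 4.15, 3.61 and 4.10 FPKM, so the Itgam-rich replicate 3 lay within the range of the others.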

How the data were processed

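RNA of CD31-positive cells was sequenced as 6 Shb-inactivated and 4 wild-type libraries after ribosomal RNA removal with a stranded total RNA kit, per the labels' protocols. The authors deposited 1 FPKM value per gene symbol and library. TopHat2 2.1.1 and Cufflinks 2.2.1 are listed with the build GRCm38, per the submitters' processing notes. For the annotation and the strand setting, the sources used here name nothing. FPKM keeps no read totals, so depth is unknown. Sums were 477329 to 576687 per library and Spearman correlations between libraries 0.892 to 0.951. Exact zeros can be failed estimates.

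Decimal commas were read as points. Genes that reached 1 FPKM in 4 or more libraries were tested on log2(FPKM + 1) with limma 3.58.1 in R 4.3.3 (mean-variance trend, no covariate, two-sided), adjusted by Benjamini-Hochberg over 12805 genes at 0.05, and single ligands by exact two-sided permutation over 210 splits (35 in Itgam-poor libraries). What the p-values measure is variation among these 10 libraries. The limma step was tested on simulated data. Other pseudocounts, filters, scalings and covariates, and leaving out libraries, were alternatives. Folds and tests are given for the 12 tested ligands with the highest mean of the 2 group means, and for any that passed or whose groups did not overlap; other ligands are given as values, and Cxcl3 and Ackr1 were singled out after their values were seen. Members and lists were chosen with earlier results of these data known. The symbol Ccl27a.1 lies outside the rule. Positions are from GENCODE vM21 and start regions from RefSeq, which held 21 of the 31. Plots used matplotlib 3.10.9. The values of 1 receptor are not reported here.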

Additional observations from a re-analysis of the deposited data

Results flagged for a closer look

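Over the 23 ligands that reached 1 FPKM, 46 sets of values were looked at (each ligand in each genotype, on the log2 scale) for a library far from the rest of its group. Chance gives about 1 in 20 such sets, and 2 were found. Ccl25 was 4.29 FPKM in wild-type replicate 1, against 1.81 to 2.03 FPKM in the other 3 wild-type libraries. Ccl21a was 1.26 FPKM in wild-type replicate 4, against 0.07 to 0.19 FPKM in the other 3.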

How the results depend on the processing

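In all 22 alternatives limma called 0 genes, 0 ligands and 0 receptors at an adjusted p under 0.05, against 442 genes at an unadjusted p under 0.05 in the analysis reported. The signs of most ligand differences, in log2 and Shb-inactivated minus wild type, were not stable, and the cause was not tested. Leaving out 1 library at a time, the median of the 22 ligands ran from -0.91 to 0.081, Ccl2 from -1.08 to 0.79, Cxcl2 from -1.66 to 0.71, Ccl7 from -1.80 to 0.64, Ccl9 from -2.54 to 0.057 and Ccl12 from -2.30 to 0.0041. Cxcl1 ran from -0.64 to 1.07, Ccl3 from -1.58 to 0.65, Ccl4 from -1.41 to 0.48, Cxcl12 from -0.36 to 0.26 and Cxcl10 from -0.32 to 0.50, while Ccl6, from -2.91 to -0.24, and Ccl8, from -2.81 to -0.62, kept their sign. With library quality weights the median was 0.043, Ccl2 0.29, Cxcl2 0.10, Ccl7 0.14, Ccl3 0.30, Ccl4 0.48 and Cxcl10 0.57. With log2 Itgam as a covariate the median was 0.0041, Ccl2 0.56, Cxcl2 0.29, Ccl7 0.42, Ccl12 0.055, Ccl3 0.37, Ccl4 0.30 and Cxcl10 0.33. With a melanoma marker score as a covariate the median was 0.054, Ccl2 0.36, Cxcl2 0.022, Ccl7 0.40, Ccl12 0.40, Ccl3 0.44, Ccl4 0.80 and Cxcl10 0.49. Cxcl12 was 0.0015 with TPM scaling and 0.29 without the Itgam-rich libraries, and Cxcl10 was 0.034 with TPM scaling, 0.0081 with a pseudocount of 5 and 0.00017 with quantile normalization. With Itgam-rich set at above 30 FPKM, 8 ligands in place of 14 were higher in each such library, and with a median of at least 5 FPKM, 6 in place of 18 stayed in Itgam-poor libraries.

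A replicate block over the 8 libraries that share numbers gave a median of -0.03, Ccl2 0.038, Ccl7 0.056, Ccl3 0.26 and Ccl4 0.31, and 0 calls. The same 8 libraries without the block, an alternative chosen after the data were seen, gave 0.038, 0.056, 0.26 and 0.31 for these 4. With each number once per genotype the block cannot change a difference, so these equal values were fixed in advance. Same-numbered libraries had correlations of deviations of 0.44, -0.32, 0.71 and -0.55, so the numbers were not taken to pair them. The FPKM files give no counts, so what depth limits cannot be stated.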
